A study of Homo sapiens with 6 samples.

Results

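The amino acid transporters described here are 10 genes, chosen by symbol, among the 50868 genes of the deposited table. They are SLC3A2, SLC7A5, SLC7A11, SLC1A4, SLC1A5, SLC38A1, SLC38A2, SLC6A9, SLC7A1 and SLC7A3, and each symbol was found. Their mRNA was measured by sequencing in HEK-293T, a transformed line of human embryonic kidney origin, labelled wild type. Control cells (3 libraries) had the solvent DMSO in their medium and treated cells (3 libraries) had 10 µM nitidine chloride, a benzophenanthridine alkaloid from plants, each over 12 h. The study's title concerns mTORC1, ATF4, Sestrin2 and IGF2R.

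Amino acid transporters are membrane proteins that carry amino acids across the plasma membrane, many by exchange for another amino acid and others with sodium. The leucine they bring in feeds mTORC1 signalling, and the cystine they bring in feeds glutathione synthesis. Many of their genes are known targets of ATF4, a transcription factor made in greater amounts when cells lack amino acids or are otherwise stressed.

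After nitidine chloride 6 of the 10 transporter mRNAs rose, 2 fell, 1 did not pass the test and 1 had too few reads to be tested. SLC1A4, an exchanger of alanine, serine and cysteine, and SLC6A9, the glycine transporter GlyT1, rose most, each 3.20-fold. SLC1A5, the glutamine exchanger ASCT2, rose 1.84-fold, and SLC3A2, the heavy chain of the heteromeric exchangers, 1.55-fold. SLC7A5 and SLC38A2 rose less, 1.28-fold and 1.24-fold. SLC7A11, the cystine exchanger, and SLC38A1, a glutamine transporter, fell to 0.757 and 0.824 of their DMSO levels. These calls came from edgeR's quasi-likelihood test over the 15953 genes whose mean count reached 10, at an adjusted p (Benjamini-Hochberg) under 0.05, and folds are levels after nitidine chloride over levels in DMSO. By the same rule 51.7% of all tested genes changed, 24.7% of them higher and 27% lower as shares of those tested. The median log2 fold change was 0.35 over the 9 tested transporters and 0.01 over all tested genes.

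Library totals ran from 12688093 to 16357992 counts. Mitochondrial genes took 3.80% to 3.94% of the counts in DMSO and 3.39% to 3.46% after nitidine chloride, and the part of this difference in the results was not tested. Levels are given as CPM, a gene's count scaled to a fixed total per library, after TMM scaling, which sets library totals so that most genes match between libraries. These levels are relative, so a change in total mRNA per cell cannot be seen in them, and rises and falls are relative too. Of 6 genes taken here as markers of the HEK-293T line, VIM was at 764, NEFM at 172 and NEFL at 152 CPM in DMSO. LHX1 was at 9.87 and PAX2 at 5.15 CPM, and INA was at 0. Their summed level was 985 to 1285 CPM in DMSO and 1128 to 1407 CPM after nitidine chloride. Within it LHX1 rose (log2 fold change 0.75 ± 0.10, SE) and so did NEFL (0.36 ± 0.06), whereas NEFM fell (-0.52 ± 0.07). Of 16 markers of other cell types, 12 were too low to be tested, and CD3E and UMOD were at 0 in every library. The summed level of these 16 was 51.2 to 55.9 CPM in DMSO and 61.1 to 70.1 CPM after nitidine chloride, most of it COL1A1, which rose (0.69 ± 0.09), and LRP2, which fell (-1.85 ± 0.15). The part of other cell types in the results was not tested. In bulk RNA, fewer cells that express a gene and less of its RNA per cell cannot be told apart. Scaling by library size alone in place of TMM moved the median log2 fold change of all genes from 0.01 to 0.12 and the share of changed genes that were higher from 47.7% to 57.9%. The directions of the 9 tested transporters were the same under both scalings.

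The 10 genes lie on 9 chromosomes, and their positions in the table are those of GENCODE 29 on GRCh38. SLC38A1 (chromosome 12, 46183063 to 46270017) and SLC38A2 (chromosome 12, 46358189 to 46372867) are neighbours on the minus strand, 88.2 kb apart. Sequence upstream of annotated starts was taken from RefSeq (GRCh38.p14), which gave 14 windows of 250 bases for 8 of the genes, with SLC7A11 and SLC7A3 not among them. Each window was searched on both strands for TGATGNAA, the core of the ATF4 response element, for TGACNNNGC, the antioxidant response element of NRF2, and for CACGTG, the E-box bound by MYC. The first was found in 1 of the 14 windows, against 3.14% of all 35116 windows. The second was found in 3 of them, against 10.9% of all windows, and the third in 2, against 6.34%. A match describes letters only, binding was not measured, and which start these cells use was not analysed here.

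Windows of the genes that rose most are shown first, followed by stretches that hold a match, which is in capitals. Bases of annotated exons were left out of the SLC6A9 window. The SLC1A5 and SLC3A2 matches lie at an exon boundary, before starts inside those genes, and are shown with 30 bases each. The SLC1A4 window also lies before a start inside its gene. Another SLC1A4 window, with 48.4% G and C and no match, is not shown. Matches that run past the end of a window were not searched for. All are written 5′ to 3′ on the strand of the gene.
SLC1A4, chr2:64989149-64989398, plus strand, 79.6% G and C: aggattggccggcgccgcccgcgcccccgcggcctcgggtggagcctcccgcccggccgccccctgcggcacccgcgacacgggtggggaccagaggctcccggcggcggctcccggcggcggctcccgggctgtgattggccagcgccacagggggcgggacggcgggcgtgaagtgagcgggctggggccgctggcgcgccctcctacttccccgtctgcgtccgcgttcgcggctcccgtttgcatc
SLC6A9, chr1:44031468-44031712, minus strand, 58.4% G and C: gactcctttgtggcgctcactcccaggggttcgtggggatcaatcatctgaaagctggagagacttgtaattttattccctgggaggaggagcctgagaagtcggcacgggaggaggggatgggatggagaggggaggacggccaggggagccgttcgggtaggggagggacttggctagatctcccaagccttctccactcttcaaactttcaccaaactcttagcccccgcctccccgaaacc
SLC7A5, chr16:87869508-87869757, minus strand, E-box in capitals: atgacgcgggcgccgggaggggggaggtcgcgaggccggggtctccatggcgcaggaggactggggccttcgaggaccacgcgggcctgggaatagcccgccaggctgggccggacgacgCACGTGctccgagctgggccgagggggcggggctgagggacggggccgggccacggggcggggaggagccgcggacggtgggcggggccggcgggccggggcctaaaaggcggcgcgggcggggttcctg
SLC7A1, chr13:29595689-29595938, minus strand, antioxidant response element in capitals: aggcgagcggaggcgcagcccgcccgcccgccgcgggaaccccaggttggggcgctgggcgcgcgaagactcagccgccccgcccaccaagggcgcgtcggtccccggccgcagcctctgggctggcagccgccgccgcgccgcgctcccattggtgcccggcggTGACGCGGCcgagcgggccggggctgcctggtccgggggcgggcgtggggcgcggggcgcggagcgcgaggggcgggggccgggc
SLC1A5, chr19:46784893-46784922, minus strand, ATF4 response element in capitals: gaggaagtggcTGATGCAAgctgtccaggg
SLC3A2, chr11:62881652-62881681, plus strand, antioxidant response element in capitals: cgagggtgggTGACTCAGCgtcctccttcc

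SLC3A2 (ENSG00000168003, chromosome 11, 62856102 to 62888875) encodes CD98hc, the glycoprotein that brings its light chains to the cell surface. Its level was 202, 193 and 205 CPM in DMSO replicates 1 to 3, and 296, 334 and 300.1 CPM in nitidine chloride replicates 1 to 3. All treated libraries lay above all controls. On the log2 scale the fold change was 0.63 ± 0.07 (standard error, SE), and edgeR's quasi-likelihood test put the adjusted p at 1.62e-04. Adjusted p-values of single genes below come from the same edgeR fit.

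SLC7A5 (ENSG00000103257, chromosome 16, 87830023 to 87869488) encodes LAT1, the light chain that exchanges leucine and other large neutral amino acids. It had 536, 540.1 and 547 CPM in DMSO and 656, 744 and 671 CPM after nitidine chloride. The controls lay close together and every treated library lay above them. The log2 fold change was 0.35 ± 0.06, with an adjusted p of 0.00247.

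SLC7A11 (ENSG00000151012, chromosome 4, 138164097 to 138242349) encodes xCT, the light chain that takes up cystine in exchange for glutamate. It had 138, 159 and 134 CPM in DMSO and 122, 91.1 and 113 CPM after nitidine chloride. The groups did not overlap, but the highest treated library was close to the lowest control. SLC7A11 thus had a log2 fold change of -0.40 ± 0.12, with an adjusted p of 0.0228. The adjusted p was 0.0764 without DMSO replicate 2, the highest control, and 0.0843 with scaling by library size alone.

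Both light chains need the same heavy chain, so their mRNAs were also set against SLC3A2 within each library, where library scaling cancels. On the authors' FPKM scale (fragments per kb, scaled to a fixed total per library), the log2 ratio of SLC7A5 to SLC3A2 was 2.94 ± 0.04 (SD, n = 3) in DMSO and 2.66 ± 0.01 after nitidine chloride. The ratio fell by 0.28 on the log2 scale, as SLC3A2 rose more than SLC7A5. For SLC7A11 to SLC3A2 the log2 ratio was 0.10 ± 0.17 in DMSO and -0.94 ± 0.31 after nitidine chloride, a difference of -1.04. SLC7A11 to SLC7A5 differed by -0.76. The level of such a ratio depends on the gene lengths behind FPKM, whereas its difference between the groups does not. In each case all treated libraries lay below all controls, and a two-sided exact permutation test gave p = 0.1, the smallest that 3 libraries against 3 allow. Adjusted over the 6 pairs compared, p was 0.1.

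**Figure D1:**
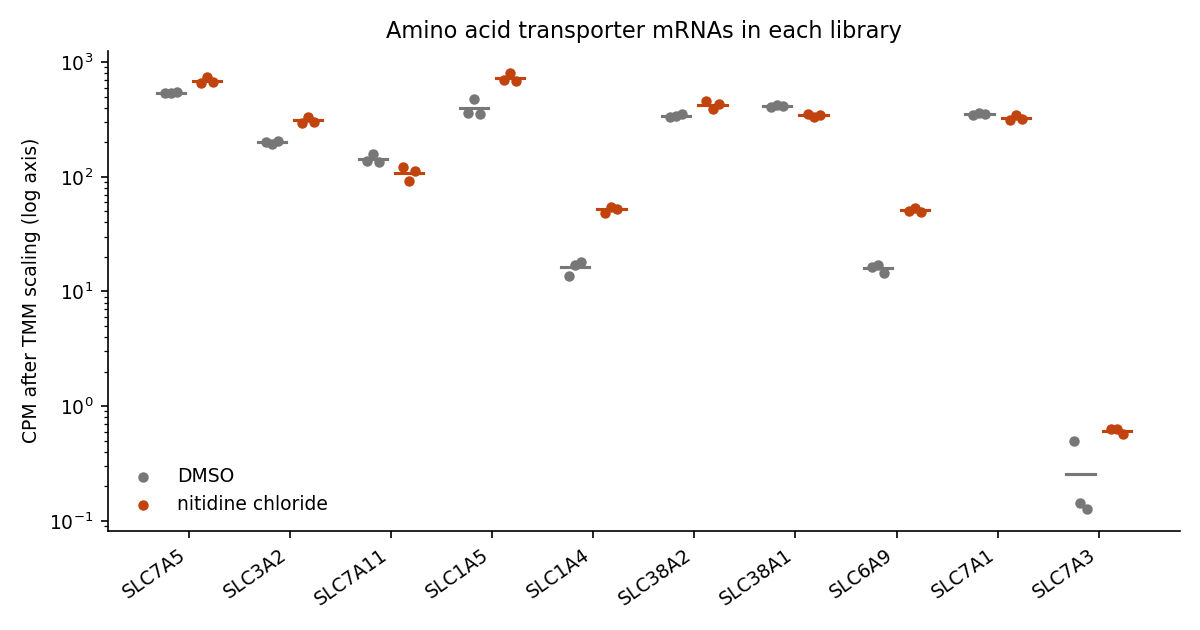
Level of each of the 10 transporter mRNAs in each library, in CPM after TMM scaling on a log axis. Points are libraries (3 per group) and short lines are group means, and SLC1A4 and SLC6A9 show the widest gaps between the groups, with SLC7A3 under 1 CPM in every library.

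SLC1A5 (ENSG00000105281, chromosome 19, 46774883 to 46788594) exchanges glutamine and other neutral amino acids for one another together with sodium. It had 359, 479 and 351 CPM in DMSO and 694, 810.4 and 689 CPM after nitidine chloride. Replicate 2 was the highest of its group in both conditions, and all treated libraries lay well above the controls. The log2 fold change was 0.88 ± 0.13, with an adjusted p of 8.98e-04.

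SLC1A4 (ENSG00000115902, chromosome 2, 64988477 to 65023865) encodes ASCT1, the close relative of SLC1A5 that carries alanine, serine and cysteine. It had 13.7, 17.1 and 17.9 CPM in DMSO and 48.8, 54.6 and 52.6 CPM after nitidine chloride. The lowest treated library was thus far above the highest control. SLC1A4 had a log2 fold change of 1.68 ± 0.12, with an adjusted p of 1.62e-05. Within libraries, the log2 FPKM ratio of SLC1A4 to SLC1A5 was -5.55 ± 0.28 in DMSO and -4.76 ± 0.09 after nitidine chloride. The ratio was thus 1.73 times as high after treatment, with non-overlapping groups (exact permutation p = 0.1, adjusted p = 0.1 over 6 pairs).

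SLC38A2 (ENSG00000134294) encodes SNAT2, the sodium-coupled neutral amino acid transporter of system A that cells induce when amino acids run short. It had 331, 341 and 351 CPM in DMSO and 454, 388 and 429 CPM after nitidine chloride. The treated libraries varied more among themselves than the controls, and all were higher. The log2 fold change was 0.31 ± 0.07, with an adjusted p of 0.0074.

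SLC38A1 (ENSG00000111371), the neighbour of SLC38A2, encodes SNAT1, a sodium-coupled importer of glutamine. It had 409, 427 and 416 CPM in DMSO and 353, 331 and 347 CPM after nitidine chloride. All treated libraries were below all controls. SLC38A1 had a log2 fold change of -0.28 ± 0.05, with an adjusted p of 0.0037. The adjacent paralogs thus moved in opposite directions. Within libraries the log2 FPKM ratio of SLC38A1 to SLC38A2 was 0.25 ± 0.04 in DMSO and -0.35 ± 0.07 after nitidine chloride, a difference of -0.59. Its groups did not overlap (exact permutation p = 0.1, adjusted p = 0.1 over 6 pairs). The sign of this ratio depends on the gene lengths behind FPKM, so its change of sign does not show a change of order.

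SLC6A9 (ENSG00000196517, chromosome 1, 43991500 to 44031467) encodes a sodium- and chloride-dependent glycine importer. It had 16.4, 17.1 and 14.4 CPM in DMSO and 50.8, 53.0 and 49.3 CPM after nitidine chloride. Both groups were tight and far apart. SLC6A9 had a log2 fold change of 1.68 ± 0.09, with an adjusted p of 5.38e-06. CCDC24, which overlaps it on the opposite strand, had 262 counts in all against 2919 for SLC6A9. The strand setting of the counting is not given in the sources used here, so for any of the transporters reads from a stretch shared with a gene on the opposite strand cannot be told apart.

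SLC7A1 (ENSG00000139514, chromosome 13, 29509410 to 29595688) encodes CAT1, the widely expressed importer of arginine and lysine, and needs no heavy chain. It had 347, 361 and 351 CPM in DMSO and 312, 345 and 321 CPM after nitidine chloride. The treated values lay just under the controls. The log2 fold change was -0.12, with a 95% interval from -0.26 to 0.03 and an adjusted p of 0.147, so it did not pass. Without nitidine chloride replicate 2, the treated library closest to the controls, the log2 fold change was -0.16 with an adjusted p of 0.0348, and with scaling by library size alone it was -0.01.

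SLC7A3 (ENSG00000165349, chromosome X, 70925582 to 70931125) encodes CAT3, a cationic amino acid transporter best known from brain. It had 6, 2 and 2 counts in DMSO and 9, 10 and 8 counts after nitidine chloride, a mean of 6.17 counts, and was below the filter. The ratio of summed counts scaled to the libraries was 2.57, with an exact 95% counting interval from 1.21 to 5.96 that covers counting error only. Without a filter on low counts, edgeR's quasi-likelihood test gave an adjusted p of 0.102. The log2 FPKM ratio of SLC7A1 to SLC7A3 was 9.32 ± 1.11 in DMSO and 7.64 ± 0.09 after nitidine chloride (exact permutation p = 0.1, adjusted p = 0.1 over 6 pairs), and it rests on these few SLC7A3 counts.

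**Figure D2:**
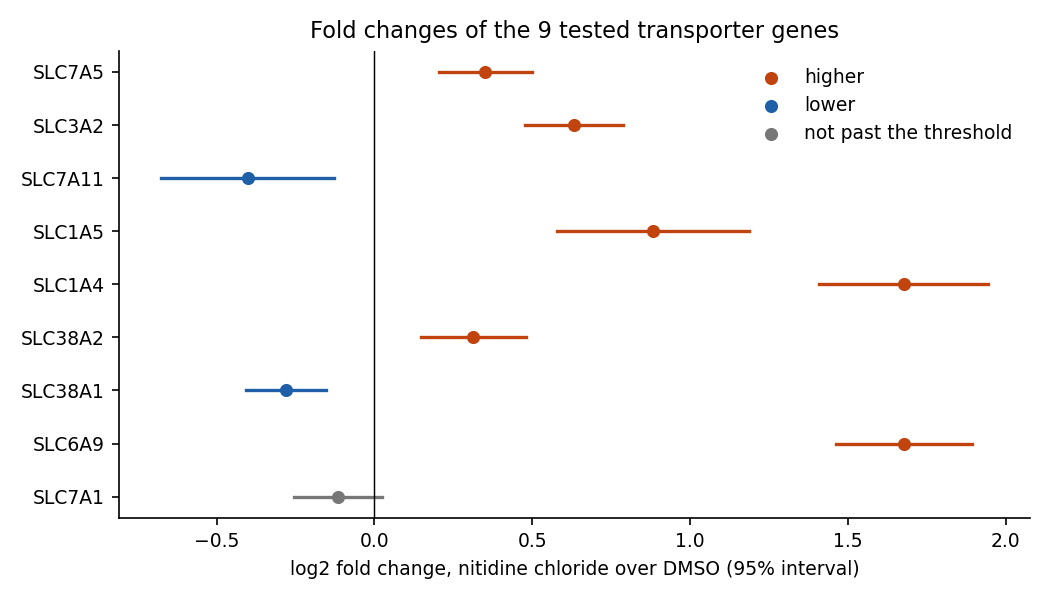
Log2 fold change of the 9 tested transporter genes, nitidine chloride over DMSO, with 95% intervals from the quasi-likelihood fit. The intervals of 6 genes lie above 0 and those of SLC7A11 and SLC38A1 below it, and the interval of SLC7A1 spans 0.

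**Figure D3:**
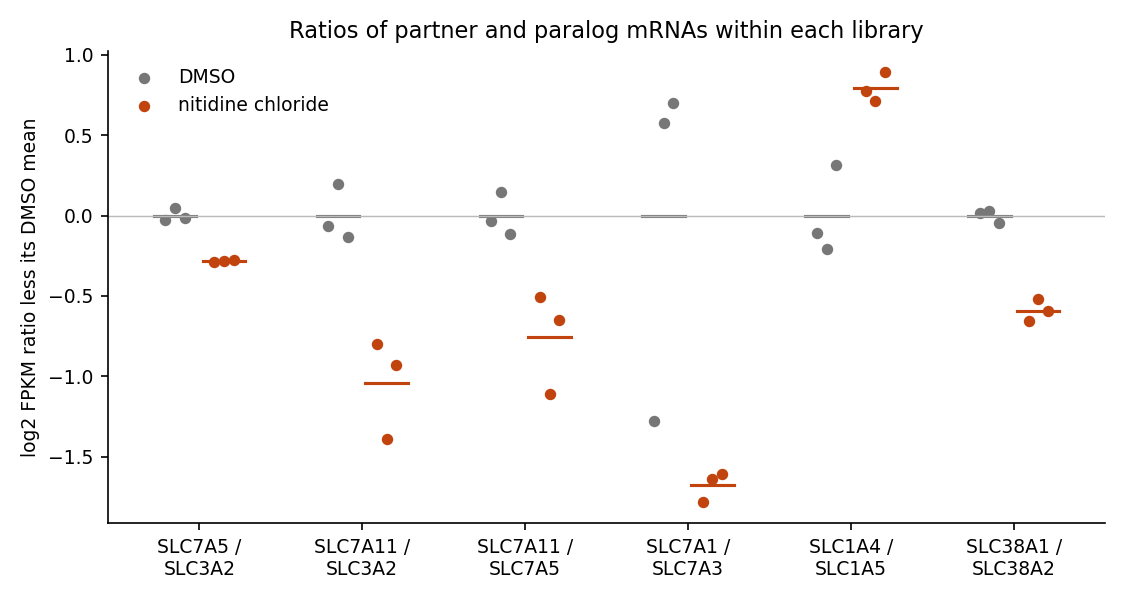
Log2 FPKM ratio of 6 pairs of transporter mRNAs in each library, less the DMSO mean of the pair. Points are libraries and lines are group means, and the SLC1A4 to SLC1A5 ratio is higher after nitidine chloride while the other ratios are lower.

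The groups of CPM values did not overlap for any of the 9 tested transporters, 6 higher and 3 lower after nitidine chloride. Over all tested genes 60.7% had groups that did not overlap, 29.7% higher and 31% lower as shares of those tested. The summed level of the 10 genes was 2353 to 2534 CPM in DMSO and 2973 to 3151 CPM after nitidine chloride, 1.25 times as high on average. SLC1A5 took 16.3% ± 2.29 (SD, n = 3) of the counts on these genes in DMSO and 24.0% ± 1.45 after nitidine chloride. For SLC38A1 the share went from 17.2% ± 0.336 to 11.3% ± 0.726 and for SLC7A1 from 14.6% ± 0.273 to 10.7% ± 0.260. The share of SLC7A5 was 22.3% ± 0.887 and 22.7% ± 0.830.

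Levels of different genes can be compared only per length, and here the length matters. The length behind the authors' FPKM was 14.7 kb for SLC3A2, against 2.16 kb for its principal transcript in GENCODE 29, a ratio of 6.80. For SLC38A2 that ratio was 2.88 and for SLC7A11 1.02. By FPKM, SLC3A2 ranked 7 of the 10 transporters in DMSO with 13.1 ± 0.366 FPKM, far below SLC7A5 with 100.3 ± 1.25 FPKM. Per kb of the principal transcript, a scale added after these lengths had been seen, SLC3A2 ranked 3, with 92.5 ± 2.77 CPM per kb against 119 ± 1.22 for SLC7A5. Length cancels in the fold change of a gene, but FPKM is scaled by library total and CPM per kb by TMM. Folds read from these 2 scales thus differ somewhat.

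Per kb of the principal transcript, the order in DMSO was SLC1A5, SLC7A5, SLC3A2, SLC38A2, SLC38A1, SLC7A1, SLC7A11, SLC6A9, SLC1A4 and SLC7A3. SLC1A5, at 138 ± 24.9 CPM per kb, was above SLC7A5 by less than its own SD, though above it in each of the 3 libraries. After nitidine chloride SLC1A5 led on this scale with 254 ± 23.8 CPM per kb. SLC7A5 and SLC3A2, at 152 ± 10.4 and 143 ± 9.63, then differed by less than the SD between libraries, with SLC7A5 the higher in each of the 3 libraries. SLC7A1 and SLC38A1, at 44.4 ± 2.34 and 42.6 ± 1.43, did not keep 1 order across the libraries. SLC7A11 fell from 14.9 ± 1.37 to 11.3 ± 1.65 CPM per kb, while SLC1A4 rose from 3.56 ± 0.484 to 11.4 ± 0.651 and SLC6A9 from 5.10 ± 0.444 to 16.3 ± 0.590. SLC1A4 and SLC7A11 then differed by less than their spread and did not keep 1 order across the libraries. On this scale SLC6A9 was below SLC7A11 in DMSO and above it after treatment, but by FPKM it was below SLC7A11 in both groups. The top of the order also depended on the scale. By FPKM SLC7A5 was above SLC1A5 in DMSO, with 100.3 ± 1.25 against 68.6 ± 12.6. After nitidine chloride SLC7A5 had 138 ± 6.81 and SLC1A5 136 ± 10.1 FPKM, and they did not keep 1 order across the libraries.

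**Figure D4:**
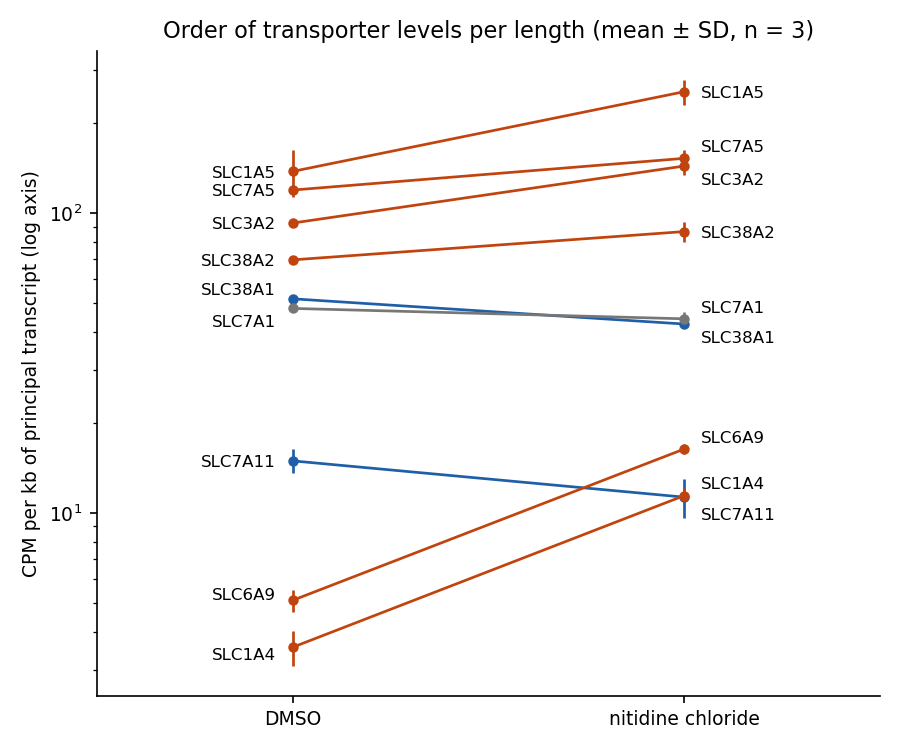
Level of 9 transporter mRNAs as CPM per kb of the principal transcript, on a log axis, in DMSO and after nitidine chloride. Points are means and bars SD over 3 libraries, and SLC7A11 falls from 14.9 to 11.3 while SLC1A4 climbs to 11.4 and SLC6A9 to 16.3.

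The genomic span of a gene, introns included, moved with fold change in these libraries, and the transporters differ in span. SLC7A11 (78.3 kb), SLC7A1 (86.3 kb) and SLC38A1 (87.0 kb) are the longest, and none of them rose. All 2535 tested genes between 50 and 100 kb had a median log2 fold change of -0.21, with 10.5% higher and 39.8% lower. SLC7A11 at -0.40 and SLC38A1 at -0.28 lay below that median and SLC7A1 at -0.12 above it. The members between 20 and 50 kb were SLC3A2 (32.8 kb), SLC1A4 (35.4 kb), SLC7A5 (39.5 kb) and SLC6A9 (40.0 kb), and all rose. In this class of 3875 genes the median was 0.13, with 30.8% higher and 12.2% lower. SLC1A5 (13.7 kb) and SLC38A2 (14.7 kb) rose too, in a class with a median of 0.30 and 44.2% higher. SLC38A2, at 0.31, lay close to that median, and SLC1A5 and each of the 20 to 50 kb members were further above theirs. The part of span in these results was not tested.

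**Figure D5:**
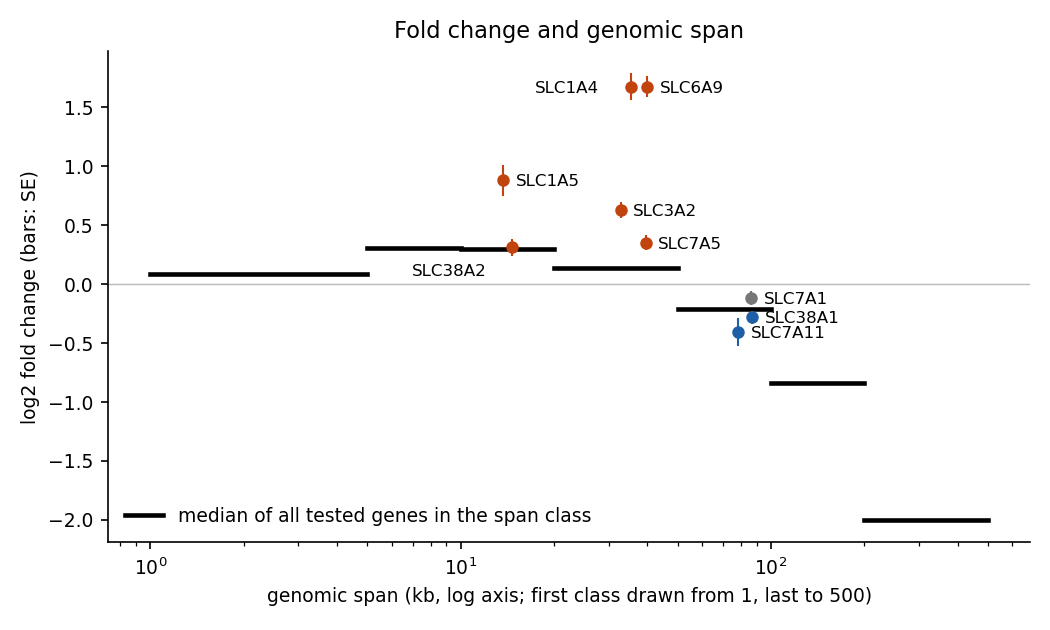
Log2 fold change of the 9 tested transporters (points, bars show SE) against genomic span on a log axis. Black lines are the medians of all tested genes in 7 span classes, and SLC7A11 and SLC38A1 lie below the median of their class, SLC7A1 above it, and SLC1A4 and SLC6A9 furthest above theirs.

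Other amino acid transporters of the plasma membrane went both ways, and values for genes named from here on are log2 fold changes ± SE unless given in CPM. Of 33 such genes 17 could be tested, of which 6 rose, 5 fell and 6 did not pass, with a median log2 fold change of -0.18. Counts for this and later lists stand beside 51.7% of all tested genes changed, 24.7% higher and 27% lower. SLC7A7 (56.6 kb), the y+LAT1 light chain, rose with 1.72 ± 0.27 from 0.536 ± 0.147 CPM. SLC43A2 (59.6 kb), the neutral amino acid transporter LAT4, rose with 0.71 ± 0.11 and SLC38A3 (16.2 kb), the glutamine transporter SNAT3, with 0.70 ± 0.10. SLC1A2, a glutamate transporter of 168.9 kb, fell with -2.76 ± 0.46 from 1.29 ± 0.346 CPM. SLC16A10, the aromatic amino acid transporter TAT1 of 143.7 kb, fell with -1.20 ± 0.08 and SLC7A2, the cationic transporter CAT2 of 73.5 kb, with -0.64 ± 0.10. At 50 to 100 kb all tested genes had a median of -0.21, and at 100 to 200 kb -0.84. SLC7A7 and SLC43A2 thus rose in a class with a median below 0.

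Of 11 lysosomal transporters 9 were tested, of which 4 rose, 2 fell and 3 did not pass, with a median of -0.05. SLC38A7, a glutamine exporter, rose with 0.71 ± 0.12, SLC66A1, which exports cationic amino acids, with 0.63 ± 0.12 and MFSD12, which imports cysteine, with 0.45 ± 0.08. SLC36A4 fell with -0.61 ± 0.10. SLC38A9, the arginine sensor of mTORC1, fell with -0.34 ± 0.10, but its adjusted p of 0.028 reached 0.0946 without DMSO replicate 3, 0.0729 without nitidine chloride replicate 3, 0.0613 without DMSO replicate 1 and 0.0869 with scaling by library size alone. Of 14 mitochondrial carriers 12 were tested, of which 2 rose, 5 fell and 5 did not pass, with a median of -0.09. SLC25A15, the ornithine carrier, rose with 0.63 ± 0.10 and SLC25A38, a glycine carrier, with 0.59 ± 0.09. The aspartate-glutamate carriers SLC25A13 (201.9 kb) and SLC25A12 (215.5 kb) fell with -2.43 ± 0.08 and -0.69 ± 0.09. SLC25A40 (42.8 kb), a glutathione carrier, fell with -0.69 ± 0.10. All tested genes had a median of -2.00 at 200 kb or more and 0.13 at 20 to 50 kb.

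Of 11 regulators of transporter genes, 6 rose and 5 did not pass, with a median of 0.38. Over all tested genes 51.7% changed, 24.7% higher and 27% lower. ATF4 rose with 0.38 ± 0.05. DDIT3, the CHOP factor, rose with 1.52 ± 0.26, TRIB3, a pseudokinase that binds ATF4, with 1.46 ± 0.10 and CEBPB, a partner of ATF4, with 1.42 ± 0.08. NFE2L2, the NRF2 gene, had -0.09 ± 0.09 and MYC -0.52 ± 0.22, and neither passed. With scaling by library size alone NFE2L2 was at 0.0188, and without nitidine chloride replicate 1 MYC was at -0.83 with an adjusted p of 0.00303 in the edgeR test.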

How the data were processed

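The deposited table held whole-number read counts per gene for 6 libraries, per the file headers. It also held FPKM, in which the authors divided by length and library total. The submitters' processing notes list HISAT2 2.0.4 and StringTie 1.3.0 but no role for either. Counter, strand setting, build and annotation were not given in the sources used here. Of 50111 shared gene identifiers, 47484 had the position and strand of GENCODE 29 (GRCh38).

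Libraries were grouped by their labels. Nothing says that replicates were separate cultures, so p-values measure the spread between these libraries, which may be technical. Genes whose mean count reached 10 were tested with edgeR 4.0.16 (R 4.3.3; quasi-likelihood, TMM, no covariate), with Benjamini-Hochberg adjustment over all of them. SE is the log2 fold change divided by the square root of F. The procedure was tested on simulated data in which few genes, picked without regard to span, changed in either direction. That does not show how it performs where 51.7% of tested genes change, as here. Ratios were tested with SciPy 1.17.1, and plots drawn with matplotlib 3.10.9.

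The members, lists, pairs and motifs were chosen with earlier results of these data known. Named genes are the 10 members, ATF4, in each list up to 3 changed genes with the highest and up to 3 with the lowest fold change, and the 3 SLC genes nearest in profile to the members with the highest and the lowest fold change. NFE2L2, MYC, GCLC, GPX4, RNF5, OTUB1 and CCDC24 were named outside this rule, after their values were seen. Other settings tried were leaving out each library, a block for replicate number, other filters and thresholds, DESeq2 1.42.0, library-size scaling and limma-voom (limma 3.58.1). Level per kb of the principal transcript was added after seeing the data. A result on 1 withheld item is not reported here.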

Additional observations from a re-analysis of the deposited data

How the results depend on the processing

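The count of changed transporters was 8, and 7 to 9 when single libraries were left out. It was 8 with DESeq2, with limma-voom, without a filter and at a mean of at least 50 counts, and 7 at a threshold of 0.01 and with library-size scaling. Among the named genes with a test, wherever a setting kept them, the direction of NFE2L2 alone reversed, to 0.0188 with library-size scaling, and it passed in neither setting. The count of changed genes was 8250, and 7057 to 7828 with single libraries left out, 7751 with DESeq2 and 8870 with library-size scaling. Same-numbered libraries did not deviate together (correlations 0.00, -0.05 and 0.04 across genes), so the numbers were not taken as pairs, and not every library correlated best with its own number. With a replicate block 7555 genes and 7 transporters changed, and the adjusted p of SLC7A11 was 0.0526 and that of SLC38A9 0.0667, and MYC passed at 0.0495. As sign flips of the differences between same-numbered libraries, a replicate block left the ratio differences at -0.28, -1.04, -0.76, -1.68, 0.79 and -0.59, in the order of the plot of ratios, where p cannot go below 0.25. Without single libraries the SLC7A1 to SLC7A3 difference was -2.31 to -1.33, and that of SLC7A11 to SLC3A2 -1.16 to -0.86. At a threshold of 0.01 SLC7A11, SLC38A9 and SLC49A4 did not pass. Depth limits SLC7A3 most, with 10 counts in DMSO and 27 after nitidine chloride.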

Other observations

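Genes that use imported cystine did not move one way. Values are log2 fold changes ± SE from the same edgeR fit unless given in CPM. Of 14 tested genes of glutathione synthesis and cystine use, 5 rose, 4 fell and 5 did not pass, with a median log2 fold change of 0.09. The share changed over all tested genes was 51.7%. CHAC1, which degrades glutathione, rose with 1.95 ± 0.38, CTH, which makes cysteine from cystathionine, with 1.68 ± 0.07 and AIFM2, the FSP1 gene, with 1.05 ± 0.22. CTH went from 51.0 ± 3.19 to 164 ± 4.56 CPM (SD, n = 3). TXNRD1, thioredoxin reductase (134.5 kb), fell with -0.88 ± 0.15, in a span class with a median of -0.84. GSR, glutathione reductase (49.9 kb), fell with -0.51 ± 0.07, in a span class with a median of 0.13. In the same class GCLM (24.3 kb), the modifier subunit of glutamate-cysteine ligase, fell with -0.28 ± 0.06. GCLC, the catalytic subunit of that ligase, had 0.06 ± 0.08 and GPX4, the lipid peroxide reductase, 0.12 ± 0.06, and neither passed, though with scaling by library size alone GPX4 had 0.22 and an adjusted p of 0.0121 in the edgeR test.

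Of 5 tested genes for ubiquitin ligases and partners of transporter proteins, 2 fell and 3 did not pass. NEDD4L, a ligase known to act on membrane transporters (357.2 kb), fell with -2.15 ± 0.09 and NEDD4 (166.8 kb) with -1.53 ± 0.17. All tested genes had a median of -2.00 at 200 kb or more and -0.84 at 100 to 200 kb. The part of span in these 2 falls was not tested. RNF5 had -0.12 ± 0.13 and OTUB1, a deubiquitinase that binds SLC7A11 protein, 0.24 ± 0.23, and neither passed.

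Among 250 other tested genes with an SLC symbol, the one nearest in profile to SLC6A9 over the 6 libraries was SLC1A4, at a Euclidean distance of 0.42 in log2 CPM less the DMSO mean. SLC35E4 and SLC7A7 came next, at 0.65 each. This distance takes in the fold change between the groups, which was 1.68 on the log2 scale for both SLC6A9 and SLC1A4. Nearest to SLC7A11 were SLC12A2 at 0.26, SLC30A7 at 0.27 and SLC49A4 at 0.29, with log2 fold changes of -0.46, -0.43 and -0.45.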
